A study of Drosophila melanogaster with 2 samples.

Results

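Transfer RNA (tRNA) genes were followed through the accessible chromatin of the Drosophila mushroom body (MB), the paired brain centre in which courtship memory is formed. They were taken as all genes of biotype tRNA in the nuclear Ensembl annotation (release 115, dm6 assembly), which gave 290 genes among the 18046 annotated genes of the same chromosomes, transposable elements left out. The 22 mitochondrial tRNA genes were not used, because the authors had removed mitochondrial reads. The 290 genes fell into 22 isotypes, the amino acid that the tRNA carries with initiator methionine (iMet) counted apart, and into 45 anticodons. Their median length was 73 bp, with a range of 71 to 186 bp. Only 95 different gene sequences occurred among them. A tRNA gene was said to have a peak where a peak overlapped its gene body plus 100 bp on each side by at least 1 bp, and it was noted whether that peak also covered a transcription start site (TSS) of a protein-coding gene.

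The data were ATAC-seq peak lists, in which peaks mark DNA that the Tn5 transposase could enter. Both samples were biological replicates of 1 group of naive flies of genotype w*;UAS-Unc84::2xGFP/+;R14H06-Gal4/+, so that no comparison between groups of flies could be made. Between 50 and 60 heads of male flies were pooled per replicate, at the time equal to 1 h after training onset in trained flies. The nuclear tag was driven by R14H06-Gal4, an enhancer driver of the MB that labels Kenyon cells with sparse weak labelling elsewhere, and tagged nuclei were pulled from whole heads with antibody-bound beads. Replicate 1 had 13868 peaks and replicate 2 had 14583 peaks. The tissue label was checked against marker genes, and 8 of 8 Kenyon cell genes had a TSS peak in both replicates, against 0 of 3 photoreceptor genes, 0 of 2 muscle genes and 0 of 2 fat body and blood genes. The photoreceptor gene trp and the fat body and blood gene Hml had a peak in replicate 2 only. Of 3 glial genes, moody and gcm also had a TSS peak in each replicate, while repo, the defining glial gene, had none. For comparison, 55.9% of all 13968 protein-coding genes had a TSS peak in both replicates.

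As background, tRNA genes are transcribed by RNA polymerase III. Their promoter lies inside the gene, where the A box and the B box are bound by the factor TFIIIC, which brings in TFIIIB just upstream of the start, and transcription ends at a run of T. Fly genomes carry many copies of most tRNA genes, scattered or in groups, and which copies are used in a given cell type cannot be read from the mature tRNA because the copies are often identical.

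Identical copies are shown first, because they carry the question of which copy lies in open chromatin. The sequences below are the reference sequences of the 5 families with at least 6 identical genes whose copies all lie on 2L, 3L or 3R, read 5′ to 3′ from the dm6 assembly. The capitals mark the A box, where the search found one, and the B box.
Asp-GTC-1: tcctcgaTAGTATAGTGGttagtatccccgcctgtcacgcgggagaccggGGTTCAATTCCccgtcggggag
Ala-AGC-2: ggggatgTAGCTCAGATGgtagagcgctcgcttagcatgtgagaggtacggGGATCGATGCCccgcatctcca
Glu-CTC-3: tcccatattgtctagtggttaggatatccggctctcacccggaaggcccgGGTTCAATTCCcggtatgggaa
Pro-AGG-1: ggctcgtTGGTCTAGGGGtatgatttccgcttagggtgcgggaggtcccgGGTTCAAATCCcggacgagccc
Val-CAC-2: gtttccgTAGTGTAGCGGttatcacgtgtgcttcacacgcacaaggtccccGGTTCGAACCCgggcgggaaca
Asp-GTC-1 had 12 copies on 2L, 3L and 3R, of which 7 had a peak in both replicates. Ala-AGC-2 had 11 copies, with 4 in a peak in both replicates. Glu-CTC-3 had 9 copies on 3L with 2 in a peak, Pro-AGG-1 had 7 copies with 3 in a peak, and Val-CAC-2 had 6 copies on 3R with 2 in a peak. In each of these families, genes with the same letters throughout were thus partly with and partly without a peak. Families of at least 6 genes with a copy on another chromosome are not shown. Their genes with a peak in both replicates ran from 2 of 8 in Phe-GAA-1 to 8 of 9 in Ile-AAT-1.

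Accessible chromatin was found at many tRNA genes, and far more often than at windows of the same length. A peak lay at 162 tRNA genes in replicate 1 and at 154 in replicate 2, or 158 ± 5.66 (SD, n = 2). In both replicates a peak lay at 152 of the 290 genes (52.4%), and in neither replicate at 126 (43.4%), while 10 genes had a peak in replicate 1 only and 2 in replicate 2 only. The count depended on the rule, with 140 genes when the peak had to reach the gene body, 145 at a −log10 q of at least 5, 111 when the peak had to cover the whole gene and 61 when the summit had to lie within 100 bp of the gene. The background was taken from adjoining windows of 273 bp, the median length of a tRNA gene with its flanks, over the same chromosomes, of which 10.1% had a peak in both replicates. All background shares were counted by the main rule of overlap, and none was counted for the stricter rules. Among other genes counted with the same flanks, 50.2% had a peak in both replicates, but most of these are far longer than a tRNA gene. Small nucleolar RNA (snoRNA) genes, which guide RNA modification and are also short, had a peak in 17.2% of 268 genes, and small nuclear RNA (snRNA) genes in 28.1% of 32.

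Most of these peaks were not promoters of protein-coding genes. Of the 152 tRNA genes, 107 (70.4%, or 36.9% of all 290) had a peak that covered no protein-coding TSS in either replicate, called TSS-free here. A further 38 genes (25.0%) had a peak that covered such a TSS in both replicates, and the remaining 7 differed between replicates. With the summit required within 100 bp of the gene, 47 genes had a TSS-free peak. By the main rule of overlap, the background for a peak in both replicates that covered no protein-coding TSS was 3.72% of the windows and 5.97% of the snoRNA genes. It stands beside the 107 genes, and no background was counted for the summit rule. Counting the TSS of every other annotated gene left 96 tRNA genes. By distance, a peak lay at 46 of the 80 tRNA genes within 1000 bp of a protein-coding TSS (57.5%) and at 106 of the 210 genes farther away (50.5%).

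**Figure D1:**
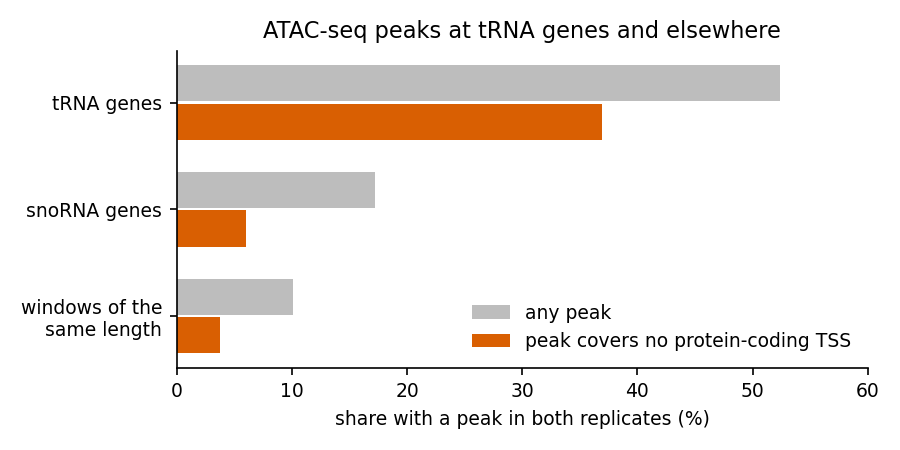
Share of tRNA genes, of snoRNA genes and of adjoining genome windows of the same length with a peak in both replicates (horizontal axis, %), for any peak (grey) and for peaks that cover no protein-coding TSS (orange). The tRNA genes reach 52.4% and 36.9%, against 10.1% and 3.72% of the windows.

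The peaks at tRNA genes were strong for peaks outside of promoters. They numbered 98 in replicate 1 and 95 in replicate 2, of which 74 and 72 covered no protein-coding TSS. Fold enrichment, the authors' ratio of the pileup at the summit to a background from the same library, had a median of 2.50 in replicate 1 and 2.38 in replicate 2 at these TSS-free tRNA peaks, against 1.62 and 1.58 at all TSS-free peaks. As a percentile, the percent of the replicate's list that is lower, this was 65.5 and 66.5 for the tRNA peaks, or 66.0 ± 0.704 (SD, n = 2), against 32.4 ± 0.613 (SD, n = 2) for all TSS-free peaks. The SD over 2 replicates shows how alike the lists were, and not how widely single peaks varied.

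Longer peaks are more easily met by a gene or window, so the same was counted per gene and per window. Counted so, a peak enters once for each tRNA gene or window that it meets. Of the TSS-free tRNA peaks, 33 of 74 in replicate 1 and 31 of 72 in replicate 2 held at least 2 tRNA genes. The part of this in the values below was not tested. The median percentile was 80.3 ± 1.79 (SD, n = 2) over tRNA genes with a TSS-free peak in both replicates, against 54.3 ± 2.52 (SD, n = 2) over windows with such a peak. The TSS-free peaks at tRNA genes had a median width of 958 bp in replicate 1 and 979.5 bp in replicate 2, against 357 and 341 bp for all TSS-free peaks. Where a tRNA peak also covered a protein-coding TSS, the median percentile was 86.7 and 87.8 and the median width 1859 and 1884 bp, against 72.7 and 73.8 and 1213 and 1193 bp for all peaks with such a TSS.

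The replicates gave similar values at tRNA genes. The 152 genes with a peak in both replicates rested on 93 pairs of peaks, whose fold enrichments had a Spearman rho of 0.887, given as a description because neighbouring genes share peaks and all values come from the same pair of libraries. The exact Poisson 95% intervals of the pileups, which cover counting error only, overlapped in 89 of the 93 pairs. The median pileup at a tRNA peak was 373 in replicate 1 and 356 in replicate 2, for which counting error is 5.18% and 5.30%. Exceptions came with peaks of unequal width. The selenocysteine gene SeC-TCA-1-1 lay in a peak of 2996 bp with a fold enrichment of 3.44 in replicate 1, which also covered the TSS of CG12384, and in a peak of 1045 bp with 1.71 in replicate 2. Val-AAC-2-4, named here because it stood out after its values were seen, had 5.31 in a peak of 2156 bp in replicate 1 and 1.39 in a peak of 54 bp in replicate 2. The peak of replicate 1 also covered the TSS of CG10713, and its summit lay 1564 bp upstream of the tRNA gene.

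**Figure D2:**
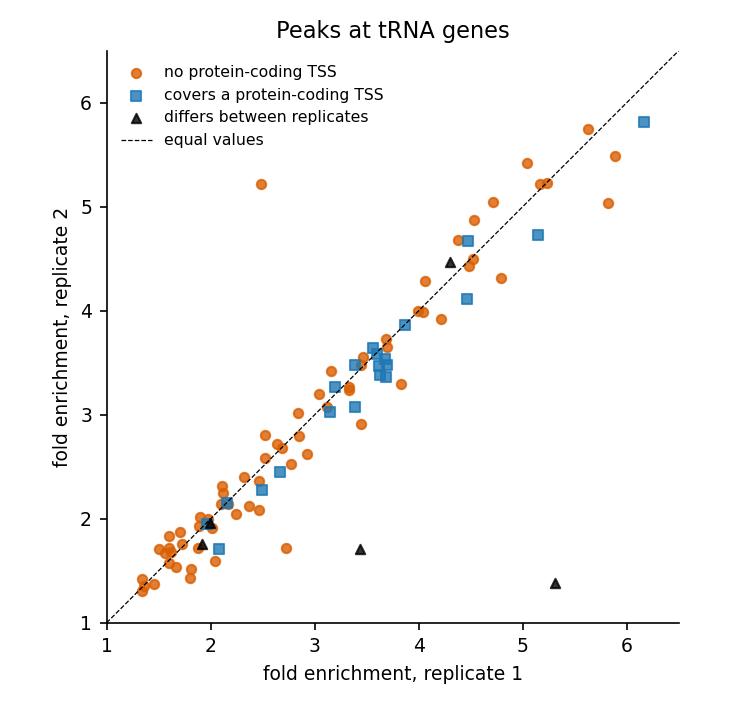
Fold enrichment of peaks at tRNA genes in replicate 1 (horizontal axis) and replicate 2 (vertical axis), 1 point per pair of peaks, coloured by whether the peak covers a protein-coding TSS. Points follow the dashed line of equal values with a rho of 0.887, and few lie far from it, such as the pair at 3.44 and 1.71 that holds the selenocysteine gene.

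The summits sat just upstream of the genes. For TSS-free peaks the summit lay at a median of -38 bp from the start of the nearest tRNA gene in replicate 1 and -28.5 bp in replicate 2, where negative values are upstream in the direction of transcription. The middle of the distribution ran from -64 to 1 bp in replicate 1 and from -57 to 10 bp in replicate 2 (lower and upper quartile). A summit lay 1 to 100 bp upstream of the gene in 41 of 74 peaks (55.4%) in replicate 1 and in 45 of 72 (62.5%) in replicate 2. Inside the gene, where the A and B boxes are, lay only 5 and 3 summits, and within 100 bp past its end 10 and 9. The immediate upstream side was thus the most frequent place of the summit in both replicates. Reads that map to several places had been removed, and 238 of the 290 genes have a body identical to that of another copy. Signal inside such bodies could be lost, and how far this set the place of the summits was not tested.

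**Figure D3:**
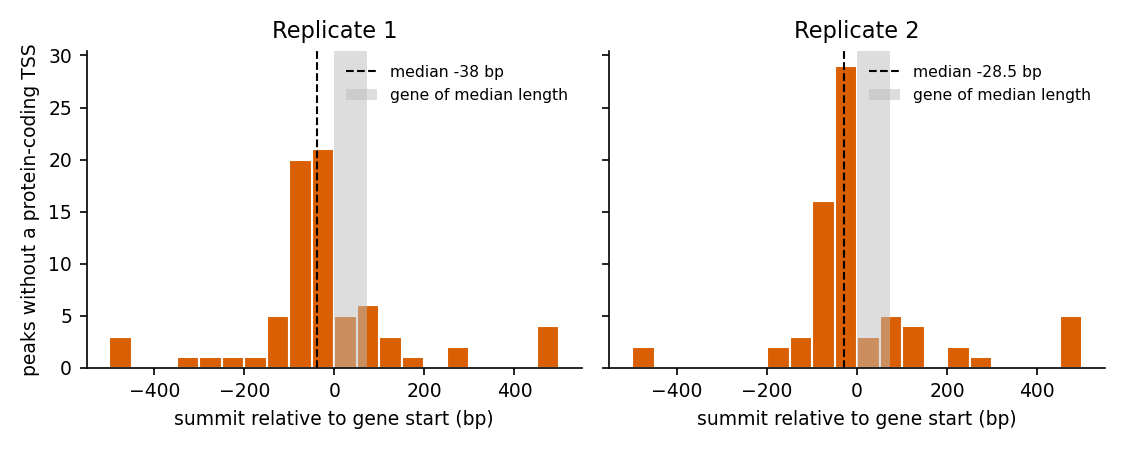
Position of the summit relative to the start of the nearest tRNA gene (horizontal axis, bp, negative upstream; summits beyond 500 bp are gathered in the outermost bins), as the number of TSS-free peaks per bin of 50 bp in each replicate. The dashed lines mark medians of -38 and -28.5 bp, and the grey band a gene of median length.

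Ranked by the mean percentile of both replicates, the first tRNA gene with a TSS-free peak was that of an arginine tRNA, Arg-CCT-1-3. Its fold enrichment was 5.89 (Poisson 95% interval 5.45 to 6.36) in replicate 1 and 5.49 (5.08 to 5.93) in replicate 2, a percentile of 99.2 ± 0.131 (SD, n = 2). The gene lies between annotated genes on 2R (20000819 to 20000891, plus strand), and its peak also held the identical copy Arg-CCT-1-2. The third copy, Arg-CCT-1-1 on 2L, had no peak and lay 1893 and 1954 bp from the nearest one.

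Next, and not separable from it by the Poisson intervals, came an initiator tRNA, which starts every protein. iMet-CAT-1-5, in an intron of ome on 3L (14674344 to 14674415), had 5.63 (5.24 to 6.04) in replicate 1 and 5.75 (5.36 to 6.16) in replicate 2, the highest TSS-free value of that replicate, and shared its peak with iMet-CAT-1-4. The other initiator genes were uneven. On 2R, iMet-CAT-1-1 and iMet-CAT-1-2 shared a peak of 3.45 and 3.48, whereas iMet-CAT-1-3, in an intron of hng3 on 3L, and iMet-CAT-2-1, in an intron of Mmp2 on 2R, had no peak and lay at least 2237 bp from one in both replicates. Initiator genes with a peak therefore numbered 4 of 6, each free of a protein-coding TSS.

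The other strong TSS-free peaks belonged to different isotypes and to several chromosomes. The serine gene Ser-GCT-2-5 on 3R had 5.82 and 5.04, and the cysteine gene Cys-GCA-1-3, in an intron of Cht7 on 3L, had 5.16 and 5.22. The leucine gene Leu-AAG-1-3 had 5.04 in replicate 1 and 5.42 in replicate 2, where its peak also covered the TSS of snoRNA:U3:54Ab. The threonine genes Thr-TGT-2-1, in an intron of sprt, and Thr-AGT-1-7, in an intron of bnl, had 4.72 and 5.04, and 4.53 and 4.88. All of these ranked above 95% of the peaks in both replicates.

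Leu-CAA-2-3 on 3R, at 5.23 in both replicates, is an example of an isolated tRNA gene under a strong peak, with no other tRNA gene or protein-coding TSS in it. It also carries an intron. The sequence below runs from 100 bases before the gene to 40 bases after it (chr3R:23601293-23601555, minus strand, dm6), with both exons of the tRNA in capitals.
Leu-CAA-2-3: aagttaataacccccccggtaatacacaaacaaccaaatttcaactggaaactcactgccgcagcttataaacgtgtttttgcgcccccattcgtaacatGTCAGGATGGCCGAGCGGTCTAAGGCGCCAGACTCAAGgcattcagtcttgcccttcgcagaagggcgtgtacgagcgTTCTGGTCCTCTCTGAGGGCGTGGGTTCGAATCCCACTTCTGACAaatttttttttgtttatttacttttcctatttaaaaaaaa
The summits of its peak lay 117 bp upstream of the gene in replicate 1 and 132 bp upstream in replicate 2, before the first base shown. The run of T that ends transcription follows shortly after the second exon.

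Where a tRNA peak also covered a protein-coding TSS, tRNA gene and promoter cannot be told apart. The strongest of these was Tyr-GTA-1-9, in an exon of Ntl on 2L, with 6.17 (5.72 to 6.64) in replicate 1 and 5.82 (5.39 to 6.27) in replicate 2, in a peak that covered the TSS of Ntl. Its summits lay 62 and 45 bp upstream of the tRNA gene. Arg-TCG-4-1 had 5.15 and 4.73 in a peak with the TSS of CG14668, with summits 34 and 55 bp upstream of the tRNA gene. For Trp-CCA-2-2 (4.47 and 4.67, with CG30122) the summits lay 282 and 342 bp upstream, and for Val-CAC-2-5 (4.47 and 4.11, with Naam) 521 and 527 bp downstream of the start, so that these summits were no longer next to the tRNA gene.

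The strongest tRNA genes with a peak in 1 replicate only lay close to a peak in the other replicate. Leu-CAA-1-1 lay 73 bp from a peak of 3.87 that covered the TSS of ATP8A in replicate 1 and 135 bp from the nearest peak in replicate 2. The next by fold enrichment were Thr-TGT-2-4 (2.47), Ser-CGA-1-2 (2.32), Val-CAC-2-1 (2.31) and Asp-GTC-1-8 (2.16) in replicate 1, and these genes lay 138 to 302 bp from a peak in replicate 2. The limit of 100 bp also mattered for other genes. A peak in both replicates lay at 140 genes with no flank, at 145 with 50 bp and at 173 with 500 bp. Arg-TCG-2-3 was counted with 97 and 39 bp to the peak edge and Cys-GCA-4-1 with 74 and 0 bp, whereas Phe-GAA-1-2 with 114 and 175 bp and Gln-CTG-3-1 with 194 and 149 bp were not. Of the 126 genes without a peak, 90 lay over 1000 bp from any peak, and the median distance was 2214.5 bp.

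By isotype, no class was without a gene at a peak. This says little by itself, since 52.4% of all tRNA genes had a peak in both replicates and 21 isotypes held at least 5 genes. Each of the 22 isotypes and each of the 45 anticodons had at least 1 gene with a peak in both replicates, and 21 isotypes and 42 anticodons had at least 1 whose peak covered no protein-coding TSS. The exceptions among isotypes and anticodons were the single SeC gene, Arg-TCT, with 1 of its 3 genes in a peak together with the TSSs of CG34228 and CG9003, and Gly-TCC, with 2 of 6. Among the isotypes of at least 5 genes, the share with a peak in both replicates ran from 25.0% for phenylalanine (2 of 8) to 90.9% for isoleucine (10 of 11). Histidine (4 of 5) and leucine (15 of 22) were also high, and glycine (6 of 20) and asparagine (3 of 10) low. These classes are small and their genes often share a peak, so the shares are given as counts and not as differences between isotypes.

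What the peaks covered differed too. Of the 10 isoleucine genes with a peak in both replicates, 4 had a TSS-free one, and of the 6 glycine genes only Gly-GCC-1-1 had. In alanine, lysine and proline, by contrast, each of the genes with a peak in both replicates (9, 9 and 8 genes) had a TSS-free one. At the level of anticodons, all genes of 8 anticodons had a peak in both replicates, and these 8 were small classes of 1 to 3 genes. Ala-CGC (3 genes, fold enrichment 4.38 and 4.68), Thr-CGT (3 genes, 4.21 and 3.92), Leu-TAG (2 genes, 4.53 and 4.50), Ala-TGC (2 genes, 3.33 and 3.26), Ser-TGA (2 genes, 3.12 and 3.08) and Ile-TAT (2 genes, 3.33 and 3.24) each lay in 1 shared peak. Both genes of Val-TAC lay near separate peaks of 1.96 and 1.95, and of 1.34 and 1.30.

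**Figure D4:**
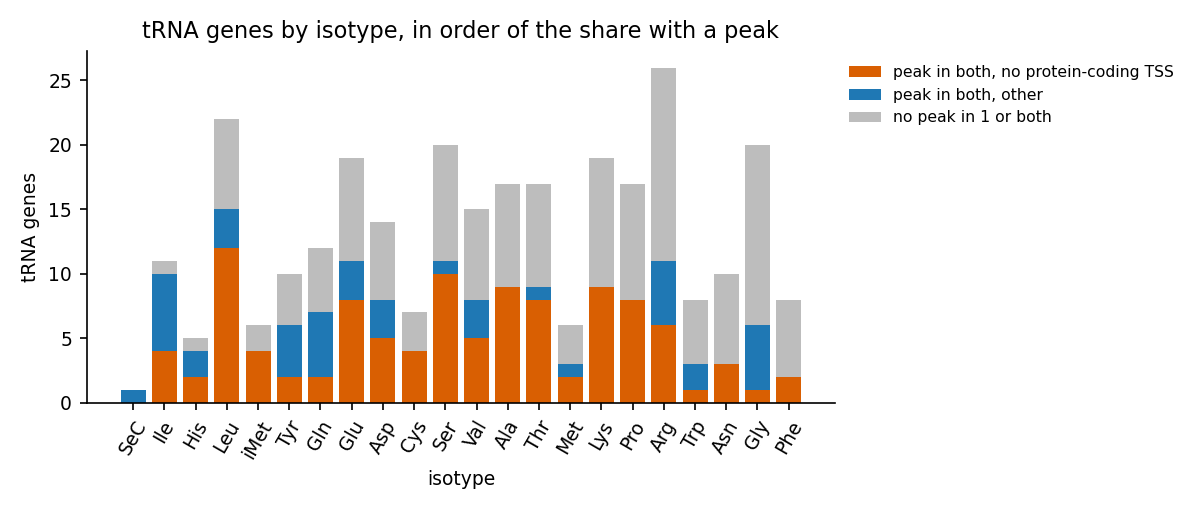
Number of tRNA genes of each isotype (vertical axis), in order of the share with a peak in both replicates from left to right, split into genes whose peak covers no protein-coding TSS (orange), other genes with a peak in both (blue) and genes without one in at least 1 replicate (grey). Of the isotypes with at least 5 genes, isoleucine stands highest with 10 of 11 and phenylalanine lowest with 2 of 8.

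Intron-containing tRNA genes, whose transcripts must be spliced by the tRNA splicing endonuclease, had a peak in both replicates in 10 of 16 cases. They comprised all 10 tyrosine genes, the 4 Leu-CAA genes and the 2 Ile-TAT genes. Of the tyrosine genes, Tyr-GTA-1-6, Tyr-GTA-1-7 and Tyr-GTA-1-8 shared a peak of 3.39 and 3.48 that covered the TSS of CG8036, and Tyr-GTA-1-4 and Tyr-GTA-1-5 shared a TSS-free peak of 1.88 and 1.72. Tyr-GTA-1-2, Tyr-GTA-1-3, Tyr-GTA-1-1 and Tyr-GTA-2-1 had no peak, and Tyr-GTA-1-2 lay 8459 bp from the nearest one in replicate 1 and 8476 bp in replicate 2.

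Genes were placed in 1 group where no more than 5 kb lay between neighbours, which gave 144 groups. A peak in both replicates lay at 29 of the 76 tRNA genes that stood alone (38.2%), at 74 of 118 genes in groups of 2 or 3 (62.7%) and at 49 of 96 genes in groups of 4 or more (51.0%). Grouped genes were more easily counted together, because 45 of 98 peaks in replicate 1 and 42 of 95 in replicate 2 held at least 2 tRNA genes. Small groups were mostly uniform, with 29 of 52 wholly in peaks and 15 wholly outside. Of the 16 groups of 4 or more genes, 12 were split, 2 lay wholly in peaks and 2 wholly outside.

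The largest groups showed where such a split ran. On 3R (17617761 to 17631750), 11 genes of alanine, proline, threonine and valine stretched between annotated genes into CG43175, and the first 5 in chromosome order, from Val-CAC-1-1 to Ala-AGC-2-3, had a peak in both replicates while the last 6 had none. The strongest of their peaks had 3.04 and 3.20, but its edge only reached Val-CAC-1-1 and its summits lay 1919 and 1948 bp upstream of that gene. The peak at Ala-AGC-2-2, Pro-TGG-1-2 and Ala-AGC-2-3 had 2.16 and 2.14, and that at Pro-TGG-1-1 had 1.51 and 1.71. The last gene, Pro-TGG-1-3, lay 11309 bp from the nearest peak in replicate 1, although the identical Pro-TGG-1-1 and Pro-TGG-1-2 were in peaks of the same group. On 2R (6161535 to 6171759), 11 genes began inside an intron of EcR, which encodes the ecdysone receptor. Here the first 6 had no peak and the last 5 had one, with the strongest, of 3.47 and 3.55, at Lys-CTT-1-5 and Arg-ACG-1-4. The others were less clear. Lys-CTT-1-4 and Ile-AAT-1-1 were counted through a weak peak of 1.36 and 1.35, 84 and 52 bp wide, that lay 12 and 55 bp outside of Ile-AAT-1-1, and the peak at Arg-ACG-1-3 covered the TSS of EcR.

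The groups of 7 genes differed among themselves. On 2R (19725620 to 19728958), 2 iMet and 5 glutamate genes all had TSS-free peaks of 1.60 to 3.45 in replicate 1 and 1.84 to 3.48 in replicate 2. On 2R (13430282 to 13432794), 5 isoleucine and 2 leucine genes in an intron of ATP8A lay at 1 peak of 3.87 and 3.86 that covered the TSS of ATP8A, which left out Leu-CAA-1-1 in replicate 2. On X (14014814 to 14017284), the first 2 of 7 genes, Arg-TCG-2-1 and Ser-CGA-1-1, shared a peak at a fold enrichment percentile of 60.8 in replicate 1 and 67.0 in replicate 2, and the 4 identical Arg-TCG-3 genes behind them had none. A group on 3R (8139533 to 8141042) of 5 arginine genes and 1 asparagine gene, named after its values were seen, had no peak at any gene, and its first gene, Asn-GTT-1-10, lay 11910 bp from the nearest one in replicate 1.

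**Figure D5:**
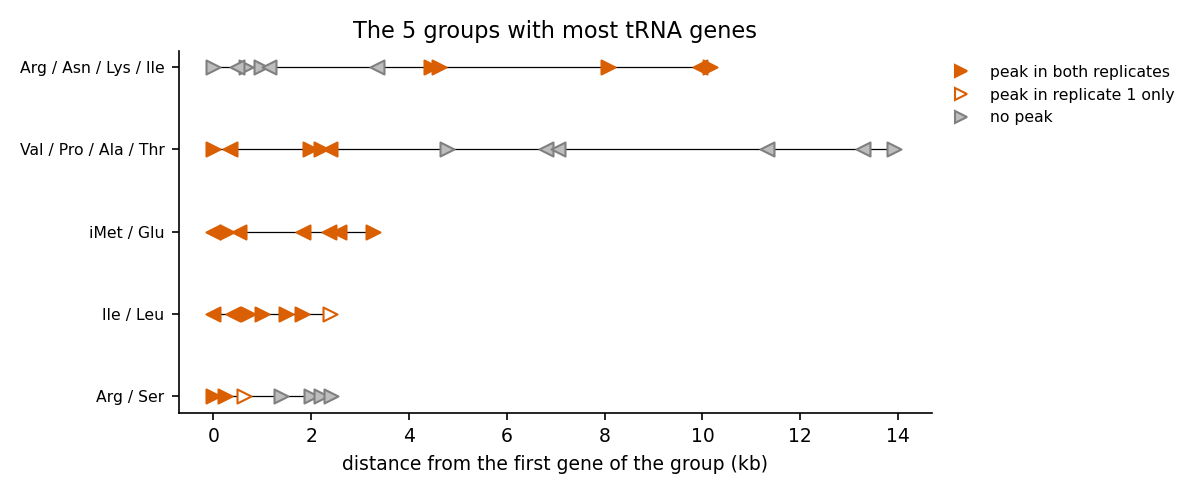
Map of the 5 groups with most tRNA genes, each gene an arrow in the direction of its strand at its distance from the first gene of the group (horizontal axis, kb), labelled by isotype. Filled orange marks a peak in both replicates, open orange a peak in replicate 1 only and grey no peak. In the groups of 11 genes, 5 neighbours at 1 end have peaks and the other 6 do not.

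Chromosome arms were unequal. A peak in both replicates lay at 65 of 98 tRNA genes on 2R (66.3%), 24 of 48 on 3L (50.0%), 39 of 79 on 3R (49.4%), 19 of 41 on 2L (46.3%) and 5 of 24 on X (20.8%). Of the adjoining windows, 10.9% on 2R, 10.1% on 3L, 10.9% on 3R, 10.7% on 2L and 7.69% on X had such a peak. The flies were males, with a single X, and the part of X dosage in these counts was not tested. By the surrounding annotation, a peak lay at 82 of 156 genes between other genes (52.6%), 64 of 127 in introns (50.4%) and 6 of 7 in exons (85.7%). Within protein-coding genes a peak lay at 43 of 75 tRNA genes on the opposite strand of the host (57.3%) and at 27 of 59 on the same strand (45.8%).

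Identical tRNA genes were often in different states. Of the 290 genes, 238 belonged to 43 families of identical genes. In 33 families some but not all members had a peak in both replicates, in 5 families all had one and in 5 none. Genes with a sequence of their own had a peak in 31 of 52 cases. Isoleucine family Ile-AAT-1 had 8 of 9 members in peaks and Leu-CAG-1 had 6 of 8, whereas Arg-ACG-1 had 3 of 10 and Gly-GCC-1 had 4 of 13.

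Because the authors removed reads that map to several places, repeated sequence could hide a peak, and this was measured. The share of words of 100 bases around each gene that occur once in the genome had a median of 100% in genes with a peak in both replicates and of 100% in genes without one. Every word was unique for 147 of 152 genes with a peak and for 115 of 126 without. Fewer than 50% were unique for 0 of 152 genes with a peak and for 4 of 126 without, namely Glu-CTC-3-5, Glu-CTC-3-6, Lys-TTT-2-2 and Lys-TTT-2-3, which were picked out after their values were seen. For these 4, the lack of a peak and the lack of countable reads cannot be told apart.

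Promoter letters inside the gene were as frequent with a peak as without. The B box, searched as GGNTCNANNCC on the gene strand, occurred in 127 of 152 genes with a peak (83.6%) and in 106 of 126 without (84.1%), against 0.171% of all 73-base windows. The A box occurred in 141 of 152 (92.8%) and in 117 of 126 (92.9%), against 2.95% of windows. TTTT within 30 bases after the gene was found in 144 of 152 genes with a peak (94.7%) and in 122 of 126 without (96.8%), against 21.1% of windows. All of these letters were searched on the strand of the gene, and on 1 strand of the windows.

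Upstream of the gene, TATA within 50 bases occurred at 28 of 152 genes with a peak (18.4%) and 34 of 126 without (27.0%), against 19.1% of windows of that length. CAAC within the last 10 bases before the gene, a motif chosen after the sequences were seen, occurred at 31 of 152 genes with a peak (20.4%) and 12 of 126 without (9.52%), against 3.02% of windows. Families share their upstream letters in part, so no test was made. The 50 bases before 6 of the identical Asp-GTC-1 genes are shown because the copies differ only outside of the gene, with CAAC in the last 10 bases in capitals (dm6). The first 3 were the copies with the highest fold enrichment percentile among the 7 with a peak in both replicates, and the last 3 were those farthest from a peak in replicate 1 among the 4 with none in either.
Asp-GTC-1-6: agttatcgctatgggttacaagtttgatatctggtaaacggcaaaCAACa
Asp-GTC-1-5: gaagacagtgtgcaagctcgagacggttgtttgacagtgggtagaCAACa
Asp-GTC-1-4: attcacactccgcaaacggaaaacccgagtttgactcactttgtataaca
Asp-GTC-1-10: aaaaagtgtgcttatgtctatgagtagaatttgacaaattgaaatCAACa
Asp-GTC-1-7: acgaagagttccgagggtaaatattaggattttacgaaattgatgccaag
Asp-GTC-1-12: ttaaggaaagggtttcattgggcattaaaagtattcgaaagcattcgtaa
Asp-GTC-1-6 (chr2L:8619978-8620027, plus strand) had a fold enrichment of 2.77 and 2.52 with summits 63 and 60 bp upstream of the gene, shortly before the bases shown. Asp-GTC-1-4 (chr2L:8541624-8541673, minus strand) lay in a peak of 2.11 and 2.32. Asp-GTC-1-5 (chr2L:8541711-8541760, plus strand) was counted through the same peak, which ended 71 and 70 bp before the gene, so that the bases shown for it lay outside of the peak. Asp-GTC-1-10 (chr3L:13249497-13249546, plus strand), which also has CAAC, lay 4516 and 2261 bp from the nearest peak. Asp-GTC-1-7 (chr2L:8679066-8679115, plus strand) lay 3525 and 3932 bp away, and Asp-GTC-1-12 (chr3R:24914784-24914833, plus strand) 2145 and 2392 bp.

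Most genes that make and process tRNA had a peak near one of their TSSs. A peak within 500 bp of a TSS was found in both replicates for 21 of 24 genes of the RNA polymerase III machinery (87.5%), against 55.9% of all 13968 protein-coding genes. Where the peak had to cover a TSS of the gene, 18 of 24 remained, and no background was counted for that rule. Maf1, the repressor of RNA polymerase III, had the strongest, with 5.51 in replicate 1 and 5.01 in replicate 2. Among polymerase subunits, Polr1D, common to polymerases I and III, had 3.13 and 3.34. The largest subunit, Polr3A, was weak at 1.54 and 1.47, as was Polr3E at 1.38 and 1.52. Of the TFIIIB genes, Bdp1 had 2.49 and 2.37, Brf had 2.31 and 2.08, and Trf, the TBP-related factor that flies use in TFIIIB, had 2.68 and 2.64. Tbp had a peak in replicate 1 only (1.58), which covered the TSS of BaraC and not that of Tbp. The peaks of Polr1D, Bdp1, Brf and Trf covered the TSS of another gene as well as their own.

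Processing genes had TSS peaks as well. La, which binds the 3′ end of new RNA polymerase III transcripts, had 3.03 and 2.93, and RNaseZ, which trims that end, had 2.83 and 2.76. Archease, a cofactor of tRNA ligation, had 2.78 and 2.66, and the splicing endonuclease subunits Tsen34 and Tsen54 had 1.81 and 2.16, and 1.85 and 1.62. The ligase gene RtcB had a peak in replicate 2 only (1.43), and Rpp30, a subunit of RNase P, had none. The peaks of La, RNaseZ and Tsen34 also covered the TSS of a neighbouring gene.

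Other genes transcribed by RNA polymerase III had a peak in both replicates in 6 of 9 cases (66.7%). Of all snRNA genes, some of which are among these 9, 28.1% had one, and of the adjoining windows 10.1%. The 7SK gene, a regulator of transcription elongation, had 4.37 and 4.80 in a peak that covered the TSS of CG1142. The signal recognition particle RNA gene 7SLRNA:CR32864 was counted through the peak of the tRNA gene Lys-TTT-2-4, whose summits, of 3.16 and 3.42, lay 23 bp upstream of Lys-TTT-2-4 in both replicates. RNaseMRP:RNA had 2.88 and 2.60. The spliceosomal U6 genes snRNA:U6:96Aa, snRNA:U6:96Ab and snRNA:U6:96Ac lay in 1 shared peak of 2.72 in replicate 1 and in peaks of 1.72 to 2.50 in replicate 2. snRNA:U6atac, RNaseP:RNA and 7SLRNA:CR42652 had none. The uniqueness of sequence at these genes was not measured.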

How the data were processed

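Both deposited lists gave 1 row per peak. Per the submitters' notes and the methods, the authors trimmed reads (Trimmomatic 0.39), aligned them to dm6 (Bowtie2 2.4.1), shifted them for Tn5, removed duplicate, multi-mapping, mitochondrial and scaffold reads, and called peaks in each replicate alone (MACS2 2.1.2, q of 0.01). The deposited fold enrichment is a ratio, without a control library named. The deposited −log10 p and −log10 q were used to solve the summit pileup and to filter. The score in the deposited lists was not used.

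Overlaps, groups, word uniqueness and motifs were computed in Python 3.11.15 with pandas 2.3.3 and numpy 2.4.6, checked on simulated data. Sequences came from the RefSeq release of the assembly. With 2 samples of 1 group no test was made, and lists were described beside the background. Genes named were, by rule, the 8 strongest TSS-free and 4 strongest TSS-covering tRNA genes, 5 found in 1 replicate, the 5 largest groups, classes of at most 3 genes with the initiators, those nearest the limit, intron-bearing genes and the RNA polymerase III lists. For a gene with several peaks the strongest was taken. Members and lists were chosen with earlier results of these data known. Flank, overlap, threshold, group distance, word length and replicate were varied. Some members of the RNA polymerase III machinery list are not reported here by name.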

Additional observations from a re-analysis of the deposited data

How the results depend on the processing

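Of 40 alternatives, 31 stayed within 1.5 times the main count, within the spread of the replicates or, for isotypes and uniqueness, at the same value. This count does not measure robustness, because some alternatives could not move. With 2 replicates, a median without 1 of them always lies within their SD of the mean. The uniqueness of the gene body was also fixed. Requiring the summit within 100 bp of the gene left 61 tRNA genes with a peak in both replicates, and 47 with a TSS-free one. The cause was not tested. Flanks of 0 to 500 bp gave 140 to 173 genes, and leaving out 1 replicate gave 154 to 162 genes, or 113 to 118 with a TSS-free peak. The median percentile of tRNA peaks, 73.8 by fold enrichment, was 75.8 by −log10 q, 75.4 by summit pileup, 70.8 among peaks of −log10 q of at least 5 and 84.6 among TSS-free peaks. It was 72.9 to 74.6 without 1 replicate. The median summit position was -33.25 bp, or -45.75 bp by the midpoint of the peak, and -38 to -28.5 bp without 1 replicate. Median peak width was 1256 bp, or 969 bp for TSS-free peaks, and 1201 to 1312 bp without 1 replicate. With words of 50 bases, the difference in median uniqueness was 0.615 percentage points. Words of 100 bases could not be placed in most gene bodies, so the body alone was measured with words of 50 bases. There the difference in medians was 0 percentage points. A body identical to another copy holds no word that occurs once, and 238 of the 290 genes have such a body. The medians of both sets of genes were therefore fixed at the floor, and this difference does not compare their uniqueness. No paired analysis was possible because there was only 1 group.

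The lists hold called peaks only, so accessibility below the threshold was not measured. Nuclei are pooled, so peaks cannot be assigned to cell types, and an open tRNA gene is not a measure of its transcription. Precision rests on 2 replicates.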
